A study of Mus musculus with 4 samples.

Results

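The genes described here act in excision repair, translesion synthesis and direct reversal of DNA damage. They were picked by name: 35 symbols, all of them found among the 37574 genes of the authors' deposited table and all among the 16219 genes tested there. By role, 18 act in nucleotide excision repair, 10 in base excision repair, 6 in translesion synthesis, and 1, Mgmt, reverses alkylation directly.

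The RNA came from oral tumours of C57BL/6 mice that carried Bmi1CreER, a tamoxifen-activated Cre recombinase driven by Bmi1, and a tdTomato reporter. All mice of both groups had received the carcinogen 4NQO for 26 weeks and tamoxifen 24 hours before tumour collection. Dissociated tumour cells were stained for the epithelial surface protein EpCAM and sorted into EpCAM-positive, Tomato-positive cells (2 samples) and EpCAM-positive, Tomato-negative cells (2 samples). The Tomato label marks cells in which Bmi1-driven Cre was active at the tamoxifen pulse, and the Tomato-negative cells come from the same kind of tumour, not from untreated mucosa. Whether the paired libraries of a fraction derive from different mice is not stated in the labels, so q-values may reflect technical spread.

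The reduced form of 4NQO binds purine bases and leaves bulky adducts, and it also causes oxidative base damage. Bulky adducts are removed by nucleotide excision repair, in which the lesion is found, the helix is opened by the transcription factor TFIIH, and a stretch of the damaged strand is cut out and resynthesised. Small base lesions are removed by base excision repair, which starts with a glycosylase that releases the base. Adducts that persist into replication can be copied by translesion polymerases, which are called in when the replication clamp is ubiquitinated.

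Expression is given in FPKM, which corrects fragment numbers for transcript length and library size, as 1 group value of the authors for each fraction. No value per sample was used here, so no SD can be given and sequencing depth is unknown. Differences are Tomato-positive over Tomato-negative, and a gene is called where the q-value in the authors' deposited table is below 0.05. In these bulk samples, fewer cells of a type and less RNA per cell cannot be told apart.

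In Tomato-positive cells, the damage-tolerance ligase gene Rad18, the TFIIH subunit gene Gtf2h1 and the cullin gene Cul4b were higher. The alkyltransferase gene Mgmt and the gap-filling polymerase gene Polb were lower. The other 30 of the 35 genes did not pass the test. Thus 3 were called higher, beside 13.0% of all tested genes, and 2 were called lower, beside 14.2% of all tested genes. In either direction, 14.3% of the repair genes were called in the authors' deposited table, against 27.2% of all tested genes. A difference of at least 2-fold, called or not, stood in 3 of the 35 genes (8.57%) and in 24.2% of the 16010 tested genes above 0 FPKM in both fractions. The value was higher in Tomato-positive cells for 19 of the 35 (54.3%) and for 51.1% of those 16010 genes. The median log2 fold was 0.07 for the repair genes and 0.02 for those 16010 genes. Without regard to sign, the median log2 fold was 0.504 for the repair genes and 0.457 for those 16010 genes. At an unadjusted p below 0.05 the authors' deposited table had 10 of the 35 genes (28.6%), beside 36.0% of all tested genes: 5 higher (17.8% of all tested genes) and 5 lower (18.3%). At a q below 0.01, 2 were higher (9.17% of all tested genes) and 2 lower (10.3%), so 4 of 35 beside 19.4% in either direction. With a minimum of 1.5-fold on the calls, 2 were higher (11.8% of all tested genes) and 2 lower (13.4%), beside 25.2% in either direction.

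**Figure D1:**
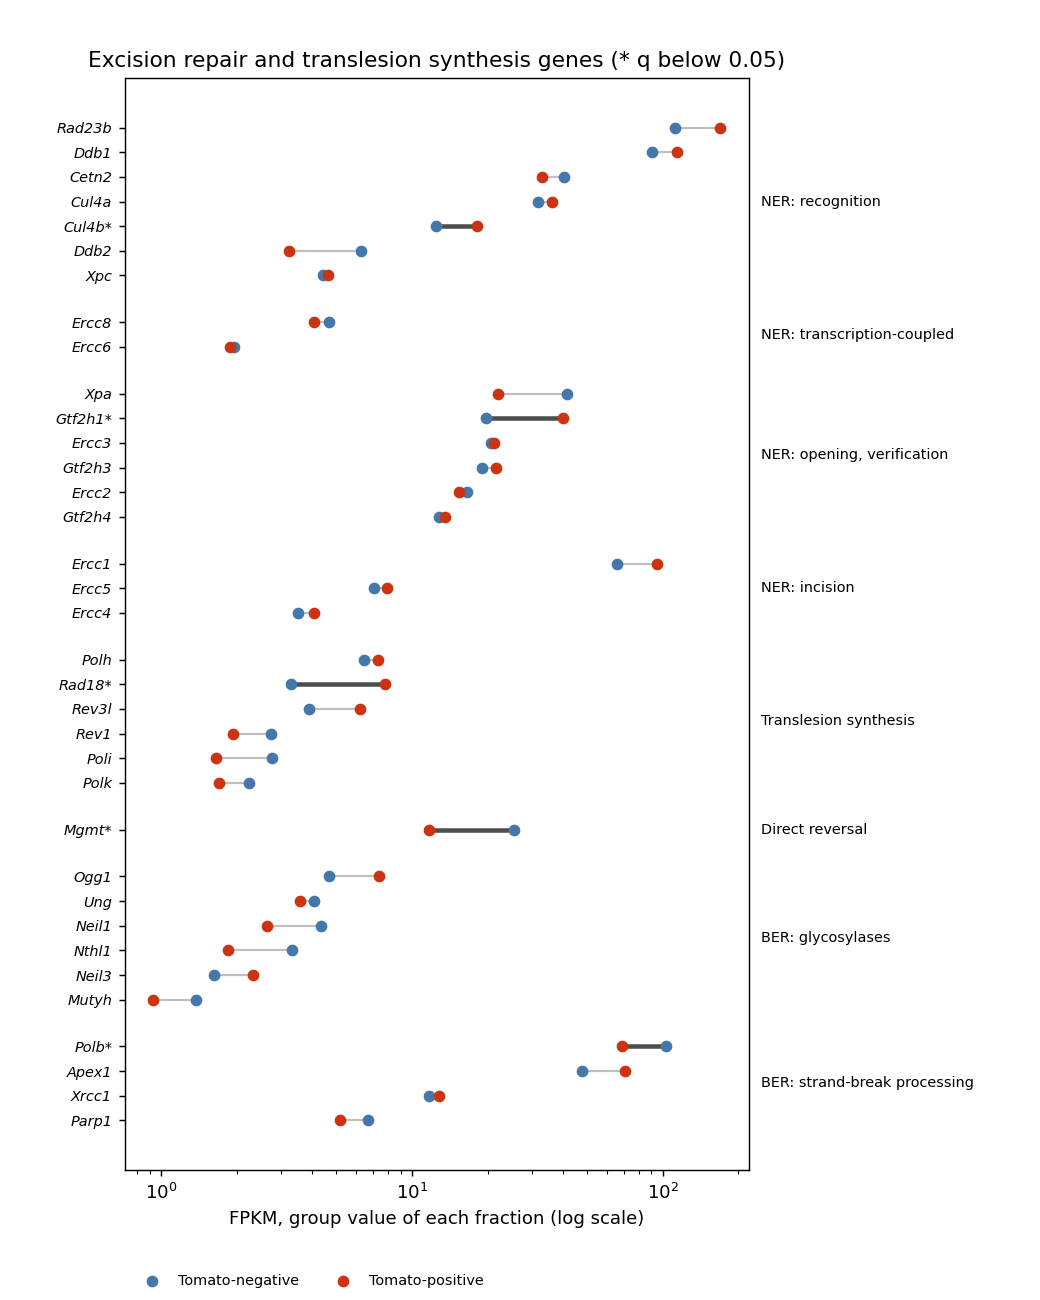
FPKM of the 35 repair genes on a log axis, 1 point for the group value of each fraction, ordered by role and level; dark bars and asterisks mark genes with q below 0.05. Most pairs of points lie close together, and the 5 called genes lie between 3.30 FPKM (Rad18, Tomato-negative) and 103 FPKM (Polb, Tomato-negative).

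Levels differed far more between genes than between fractions, as the plot of FPKM by role shows. The damage-recognition partner gene Rad23b had the highest mean of both fractions, at 140.6 FPKM, followed by Ddb1 at 102.3 FPKM and Polb at 85.8 FPKM. The adenine glycosylase gene Mutyh was lowest, at 1.15 FPKM, behind Ercc6 at 1.91 FPKM. None of the 35 genes was listed at 0 in either fraction. Of 13 genes with a mean below 5 FPKM 0 were called by the authors' q from Cuffdiff, while 25.9% of all tested genes at that level were. The unadjusted p in the authors' deposited table was below 0.05 for 3 of these 13, beside 36.0% of tested genes of all levels. They were Ddb2, Neil1 and Nthl1, all with lower values in Tomato-positive cells. Among tested genes of all levels 18.3% were lower at that cut. From 5 to 20 FPKM 3 of 11 genes were called, beside 27.9% of all tested genes, and above 20 FPKM 2 of 11, beside 27.8%.

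**Figure D2:**
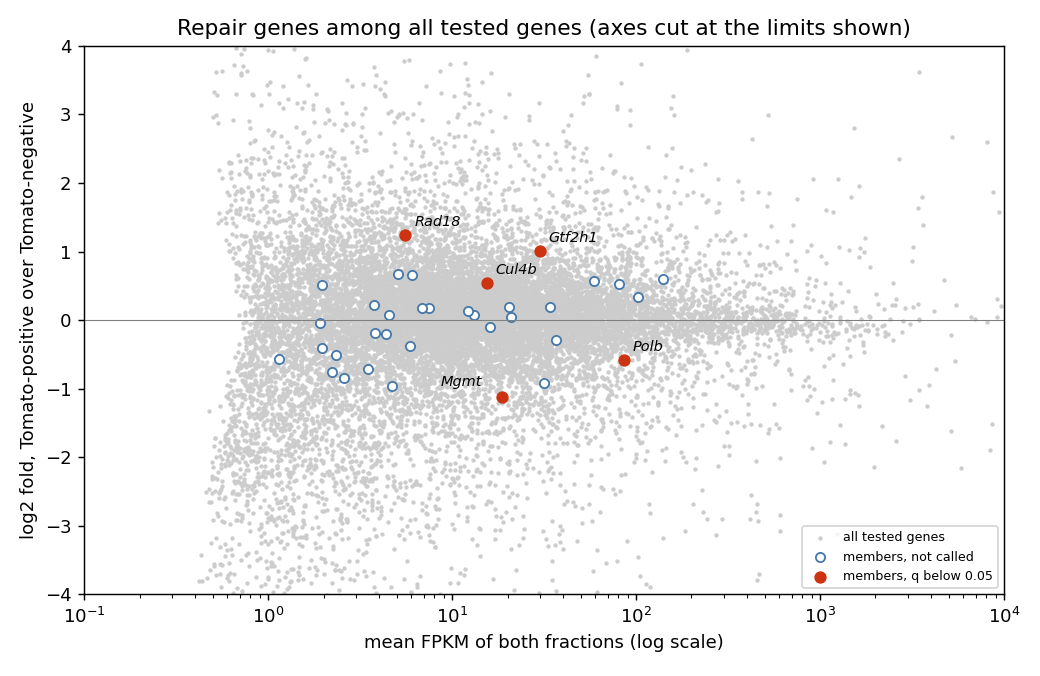
Log2 fold of Tomato-positive over Tomato-negative against the mean FPKM of both fractions (log axis) for all tested genes above 0 in both (grey) and for the 35 repair genes (open circles not called, filled circles q below 0.05). The 5 called repair genes lie at log2 folds between -1.12 (Mgmt) and 1.25 (Rad18), inside the spread of other genes of their level.

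Damage recognition in the whole genome is carried out by Xpc with its partners Rad23b and Cetn2, and by the Ddb1 and Ddb2 complex with the cullins Cul4a or Cul4b, a ubiquitin ligase that marks proteins at the lesion. Of these 7 genes 1 was called higher (14.3%, beside 13.0% of all tested genes). This was Cul4b (chromosome X, 35884799 to 35929373, mm9), which rose from 12.5 to 18.2 FPKM. Its log2 fold was 0.54, with q = 0.0184 in the authors' deposited table. Its paralog Cul4a was more abundant, at 31.7 and 36.1 FPKM, and was not called (q = 0.711 in the authors' deposited table). Cul4a stood at 2.53 times the FPKM of Cul4b in Tomato-negative and 1.98 times in Tomato-positive cells. Whether the paralogs differed in their response was not tested.

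Rad23b, which stabilises Xpc, had 111.6 FPKM without and 169.5 FPKM with the Tomato label and lay just outside the threshold, at q = 0.064 in the authors' deposited table. Xpc, the sensor itself, had 4.40 and 4.62 FPKM. Ddb2, the subunit that contacts the lesion, had 6.25 and 3.22 FPKM and was not called (q = 0.0734 in the authors' deposited table). Ddb1, which also serves other ligases built on Cul4a or Cul4b, had 90.7 and 114 FPKM. Its FPKM was thus 14.5 times that of Ddb2 in Tomato-negative and 35.4 times in Tomato-positive cells. Ddb2 overlaps the 3-prime part of Acp2 on the opposite strand, with 652 exonic bases in common in the GENCODE models (GRCm38), and the table gives both genes 1 joined locus. Acp2 rose from 3.61 to 7.09 FPKM (q = 0.0277 in the authors' deposited table). The strand setting is not given in the sources used here, so reads of the shared bases cannot be told apart. Cetn2, a centrin that also sits at centrosomes, had 40.4 and 32.9 FPKM.

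Transcription-coupled repair starts from a stalled RNA polymerase and needs Ercc6 (the CSB protein in humans) and Ercc8 (CSA). Ercc6 had 1.95 and 1.88 FPKM, and Ercc8 had 4.68 and 4.08 FPKM. Neither passed the test.

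The helix is opened by TFIIH, whose helicases are encoded by Ercc3 and Ercc2, and the lesion is verified with Xpa. Of 6 genes in this role 1 was called higher (16.7%, beside 13.0% of all tested genes). This was Gtf2h1 (chromosome 7, 54051472 to 54079170, mm9), which encodes the p62 subunit that docks TFIIH to Xpc. It went from 19.8 to 39.9 FPKM, a log2 fold of 1.01 with q = 0.000405 in the authors' deposited table, the lowest q that the table holds. The other members of the complex stood at 20.6 and 21.3 FPKM for Ercc3, 16.6 and 15.4 FPKM for Ercc2, 19.0 and 21.7 FPKM for Gtf2h3, and 12.8 and 13.5 FPKM for Gtf2h4. None of these was called. Ercc2 shares 744 exonic bases with Klc3 on the opposite strand in the GENCODE models, and Klc3 had 93.45 and 75.79 FPKM.

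The 5 further TFIIH subunits, which were not among the 35 genes, were not called either. These are Gtf2h2 (15.7 and 13.9 FPKM), the small Gtf2h5 (73.2 and 69.7 FPKM) and the kinase module of Cdk7 (8.48 and 10.5 FPKM), Ccnh (59.2 and 54.1 FPKM) and Mnat1 (8.39 and 6.35 FPKM). Apart from Gtf2h1, the 9 subunits had log2 folds from -0.40 to 0.30, with a median of -0.07. Gtf2h1 was at 0.966 times the FPKM of Ercc3 in Tomato-negative and 1.87 times in Tomato-positive cells. The locus of Gtf2h1 is joined in the table with Gm9392, a processed pseudogene on the opposite strand that lies inside Gtf2h1 and shares 0 exonic bases with it in the GENCODE models. Gm9392 was not called, with values of 23.65 and 35.05 FPKM.

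**Figure D3:**
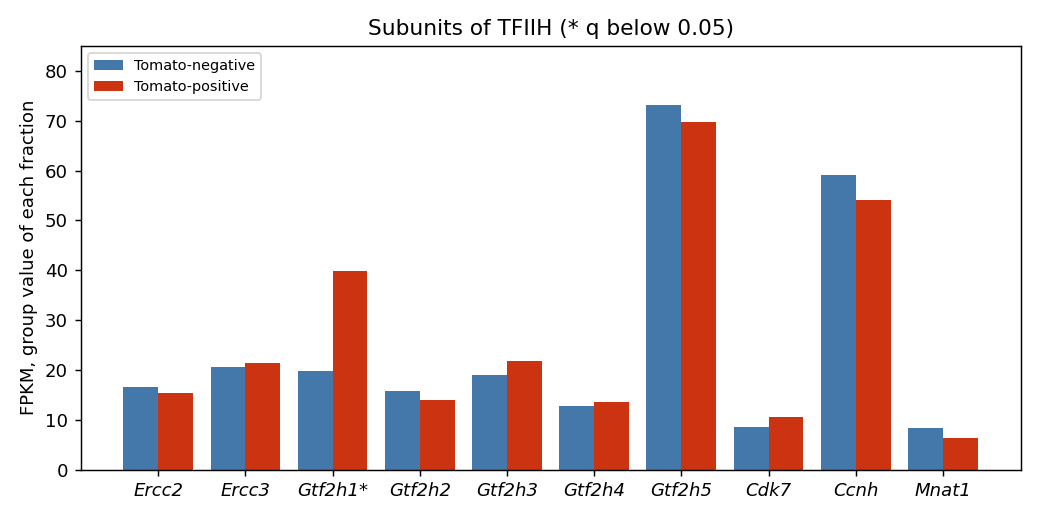
Group FPKM (linear axis from 0) of the 10 TFIIH subunit genes in Tomato-negative and Tomato-positive cells, with an asterisk where q is below 0.05. The bar of Gtf2h1 goes from 19.8 to 39.9 FPKM, and the other 9 subunits have log2 folds between -0.40 and 0.30.

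Xpa, the scaffold of the incision complex, had 41.4 FPKM without and 22.0 FPKM with the Tomato label, a log2 fold of -0.91 that was not called (q = 0.338 in the authors' deposited table). It stands in 1 joined locus with Ncbp1, Tmod1 and Tstd2, of which Ncbp1 overlaps it on the opposite strand. The damaged strand is cut by the nuclease of Ercc1 with Ercc4 on the one side and by Ercc5 on the other. None of the 3 genes was called: Ercc1 had 65.7 and 95.0 FPKM, Ercc4 had 3.50 and 4.05 FPKM, and Ercc5 had 7.03 and 7.92 FPKM. Ercc1 was at 18.8 times the FPKM of Ercc4, its obligate partner, in Tomato-negative and 23.4 times in Tomato-positive cells. Over all 18 nucleotide excision repair genes, 2 rose (11.1%, beside 13.0% of all tested genes), 0 fell (beside 14.2%) and the median log2 fold was 0.12. The share called higher was thus near that of all tested genes. At an unadjusted p below 0.05 in the authors' deposited table from Cuffdiff, 3 of the 18 were higher, beside 17.8% of all tested genes. These were Rad23b, Cul4b and Gtf2h1. By the same cut 1 of the 18, Ddb2, was lower, beside 18.3% of all tested genes.

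Translesion synthesis had 1 called gene of 6 (16.7%, beside 27.2% of all tested genes), a higher one, beside 13.0% called higher among all tested genes. Rad18 (chromosome 6, 112569843 to 112646680, mm9), the ubiquitin ligase that modifies the clamp protein PCNA at stalled forks, rose from 3.30 to 7.83 FPKM. This was a 2.37-fold difference, the largest among the 35 genes, with q = 0.000405 in the authors' deposited table. Its ubiquitin-conjugating partners Ube2a (46.8 and 67.8 FPKM) and Ube2b (101.7 and 121.2 FPKM) were not called, nor was the clamp gene Pcna (61.9 and 71.0 FPKM).

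The polymerases that Rad18 activity brings to the fork were all below 8 FPKM. Polh, which copies across ultraviolet photoproducts, had 6.46 and 7.29 FPKM, and Rev3l, the catalytic subunit of polymerase zeta, had 3.90 and 6.19 FPKM. Polk, which passes adducts on the minor groove side of guanine, had 2.24 and 1.70 FPKM. Poli had 2.78 and 1.65 FPKM. The scaffold Rev1 had 2.74 and 1.93 FPKM. None was called, beside 27.2% of all tested genes. The lower value was in Tomato-positive cells for 3 of these 5. Of all tested genes above 0 FPKM in both fractions, 51.1% had the higher value there. Rev1 shares 1643 exonic bases with Eif5b on the opposite strand, and Eif5b was far more abundant, at 31.9 and 26.1 FPKM.

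Mgmt (chromosome 7, 144086293 to 144319870, mm9) encodes a protein that takes alkyl groups off guanine onto itself and is used up in doing so. It fell from 25.5 to 11.7 FPKM, a log2 fold of -1.12 with q = 0.000405 in the authors' deposited table. The locus is not joined with another tested gene. The dioxygenase genes Alkbh2 (5.05 and 5.40 FPKM) and Alkbh3 (30.3 and 23.4 FPKM), which reverse other alkyl lesions, were not called.

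Base excision repair had 1 called gene of 10 (beside 27.2% of all tested genes), a lower one, beside 14.2% called lower among all tested genes. Polb (chromosome 8, 23738590 to 23763909, mm9), the polymerase that fills the gap and trims the sugar residue, fell from 103 to 68.6 FPKM, a log2 fold of -0.59 with q = 0.00399 in the authors' deposited table. Apex1, the endonuclease that cuts at the abasic site just before Polb acts, had 47.8 and 70.7 FPKM and was just outside the threshold, at q = 0.0554 in the authors' deposited table. Polb stood at 2.15 times the FPKM of Apex1 in Tomato-negative and 0.97 times in Tomato-positive cells. Apex1 shares 877 exonic bases with Tmem55b on the opposite strand, whose values were 34.8 and 34.5 FPKM. The scaffold Xrcc1 had 11.7 and 12.8 FPKM, and Parp1, which senses strand breaks, had 6.68 and 5.16 FPKM.

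Of the 6 glycosylase genes 0 were called by the authors' q from Cuffdiff, beside 27.2% of all tested genes. An unadjusted p below 0.05 stood in the authors' deposited table for 2 of them (33.3%), near the 36.0% of all tested genes. Those were Neil1 (4.35 and 2.64 FPKM) and Nthl1 (3.32 and 1.85 FPKM), which release oxidised pyrimidines. Ogg1, which removes oxidised guanine, had 4.68 and 7.37 FPKM, and Mutyh, which removes adenine placed opposite it, had 1.38 and 0.930 FPKM. Ung, the uracil glycosylase, had 4.07 and 3.58 FPKM. Neil3 had 1.62 and 2.32 FPKM. Ogg1 shares 232 exonic bases with Camk1 on the opposite strand.

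**Figure D4:**
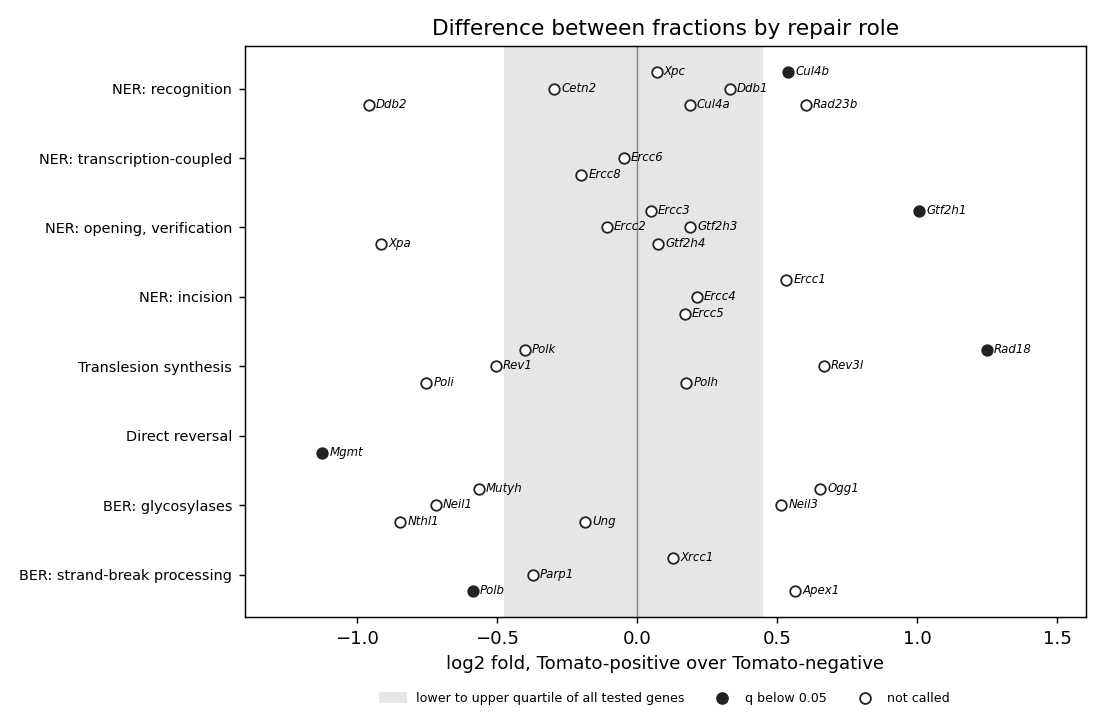
Log2 fold of Tomato-positive over Tomato-negative for each repair gene, by role; filled points have q below 0.05, and the grey band spans the quartiles of all tested genes, from -0.47 to 0.44. The called genes are Cul4b, Gtf2h1 and Rad18 to the right of 0 and Mgmt and Polb to the left, 14.3% of the 35 beside 27.2% of all tested genes.

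The promoters of called genes are shown because these genes moved in opposite directions and their start regions could be compared. Windows of 300 bases, from 250 before to 50 after the outermost start, were taken from RefSeq (GRCm38.p6) for 29 of the 35 genes. Polb was not among them. Capitals mark matches, on either strand, to 6 short motifs. These are the CHR element of cell cycle genes, TTTGAA; the box of the factor NF-Y, CCAAT; the GC box, GGGCGG; the ETS core, CCGGAAG; and the E2F cores TTTCCCGC and, in another form, TTTGGCGC. The windows are chr7:46795844-46796143 (plus strand) for Gtf2h1, chr6:112696621-112696920 (minus strand) for Rad18, chrX:38576147-38576446 (minus strand) for Cul4b and chr7:136894336-136894635 (plus strand) for Mgmt.
Gtf2h1: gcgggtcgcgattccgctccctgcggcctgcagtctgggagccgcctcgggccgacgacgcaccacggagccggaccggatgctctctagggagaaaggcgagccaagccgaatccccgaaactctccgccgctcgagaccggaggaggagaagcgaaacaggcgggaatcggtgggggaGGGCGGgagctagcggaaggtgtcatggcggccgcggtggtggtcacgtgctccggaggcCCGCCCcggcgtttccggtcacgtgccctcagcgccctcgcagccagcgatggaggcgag
Rad18: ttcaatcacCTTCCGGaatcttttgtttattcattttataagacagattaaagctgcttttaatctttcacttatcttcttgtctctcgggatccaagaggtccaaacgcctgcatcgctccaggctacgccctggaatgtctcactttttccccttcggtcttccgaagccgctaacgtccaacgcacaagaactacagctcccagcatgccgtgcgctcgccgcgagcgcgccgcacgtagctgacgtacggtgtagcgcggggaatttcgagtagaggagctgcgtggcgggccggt
Cul4b: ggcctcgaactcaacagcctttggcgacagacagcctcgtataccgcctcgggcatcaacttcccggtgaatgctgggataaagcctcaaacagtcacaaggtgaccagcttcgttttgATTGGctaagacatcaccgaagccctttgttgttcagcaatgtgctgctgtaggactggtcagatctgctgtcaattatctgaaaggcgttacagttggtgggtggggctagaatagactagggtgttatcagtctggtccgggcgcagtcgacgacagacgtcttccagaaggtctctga
Mgmt: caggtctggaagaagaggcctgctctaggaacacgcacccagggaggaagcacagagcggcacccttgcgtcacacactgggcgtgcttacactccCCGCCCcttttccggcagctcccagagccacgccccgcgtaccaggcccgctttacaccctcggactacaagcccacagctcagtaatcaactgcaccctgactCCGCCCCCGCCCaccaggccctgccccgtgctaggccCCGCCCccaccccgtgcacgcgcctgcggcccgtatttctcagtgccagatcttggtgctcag

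The window of Mgmt held 4 GC boxes, that of Gtf2h1 held 2, that of Rad18 held 1 ETS core and that of Cul4b held 1 CCAAT box. CpG dinucleotides, the sites of DNA methylation, numbered 39 for Gtf2h1, 27 for Rad18, 20 for Mgmt and 14 for Cul4b, beside medians of 23 over the 29 repair genes and 20 over 10441 promoters of tested genes. A GC box stood in 21 of the 29 promoters (72.4%) and in 62.7% of promoters of tested genes. The CCAAT motif stood in 14 of 29 (48.3%) and in 38.5% of promoters of tested genes. An ETS core stood in 4 of 29 (13.8%), beside 17.7%. The CHR motif was found in 1 of 29 (3.45%), that of Ercc5, beside 12.5%. Either of the E2F cores was found in 0 of 29, beside 2.04% of promoters of tested genes for the first form and 0.948% for the other. These are letter matches in short windows and do not show binding.

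Other genes of the same pathways, 58 in number, were taken from a list drawn up with the role groups. Of the 56 tested, 4 rose and 4 fell, which is 14.3%, beside the 27.2% of all tested genes. In base excision repair Tdg, a glycosylase for mismatched and modified thymine and cytosine bases, rose 2.09-fold to 15.6 FPKM (q = 0.000405 in the authors' deposited table), at a locus joined with Glt8d2. Apex2, a second abasic endonuclease, rose from 3.88 to 13.9 FPKM (q = 0.0076 in the authors' deposited table), at a locus joined with Alas2 and Pfkfb1. Its neighbour Alas2 was also called higher, with a log2 fold of 1.66 beside 1.84 for Apex2. Aplf, an end-joining and strand-break factor, rose from 2.32 to 3.98 FPKM. Neil2 fell 3.42-fold from 1.03 to 0.3 FPKM, both low values (q = 0.0414 in the authors' deposited table).

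Among the genes of gap filling, Pold4, the small subunit of polymerase delta, rose from 25.6 to 50.2 FPKM. Pole3, a histone-fold subunit of polymerase epsilon, fell from 64.8 to 38.8 FPKM, and the clamp loader gene Rfc3 fell from 20.9 to 13.0 FPKM. The other 11 of 14 genes in that group were not called, among them Pold1 at 13.2 and 11.2 FPKM. The called share there was 21.4%, beside 27.2% of all tested genes. In nucleotide excision repair Uvssa (4933407H18Rik in the table), which acts with Ercc6 at stalled polymerases, fell from 3.80 to 2.56 FPKM (q = 0.0341 in the authors' deposited table). The other 12 of 13 were not called, a called share of 7.69% beside 27.2% of all tested genes. Cuffdiff, the authors' tool, gave 0 calls among the 9 tested other translesion genes, beside 27.2% of all tested genes. Of these 9, 2 had an unadjusted p below 0.05 in the authors' deposited table, beside 36.0% of all tested genes. They were Mad2l2, the partner of Rev3l, with 9.90 and 5.52 FPKM, and Ube2a.

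The fractions also differed in genes of proliferation and in the markers of other cells. Of 16 genes of the G2 and M phases 14 rose (summed 160.4 and 348.2 FPKM in Tomato-negative and Tomato-positive cells), and S phase genes rose in 5 of 16 (31.2%), beside 13.0% called higher among all tested genes. Targets of p53 rose in 3 of 15 and fell in 2, a called share of 33.3% beside 27.2% of all tested genes, with a median log2 fold of 0.07. Keratinocyte markers, mostly basal and adhesion genes and with Epcam, the sorting protein, among them, rose in 7 of 8, from a summed 4302 to 19825 FPKM. Genes of later keratinocyte differentiation were not in that list. Some of them, such as Asprv1 and Aloxe3, were called lower (log2 folds -2.15 and -1.18). The list thus does not measure keratinocyte content as a whole. Most of the summed FPKM of the 8 markers came from Krt14 (2291.9 and 13864.5 FPKM) and Krt5 (1670.5 and 5176.1 FPKM), and Cdh1 (96.3 and 85.3 FPKM) was not called. Skeletal muscle markers fell in 7 of 8, from a summed 1521 to 110.9 FPKM. Fibroblast markers fell in 8 of 8, from 575.3 to 91.1 FPKM. Macrophage markers fell in 7 of 8, from 363.9 to 106.6 FPKM. Neutrophil markers rose in 5 of 7 tested and fell in 1, from a summed 1589 to 10977 FPKM over all 9. That sum is carried by S100a8 (520.4 and 6383 FPKM) and S100a9 (882.4 and 4506 FPKM), and the other 7 markers summed to 186.6 and 87.9 FPKM, with Il1r2 at 180.3 and 43.6 FPKM. The further called rises were Csf3r (0.637 and 17.1 FPKM), Retnlg (0.856 and 19.2 FPKM) and Cxcr2 (3.13 and 5.51 FPKM). Endothelial markers rose in 4 of 7 and fell in 1, from a summed 32.5 to 42.5 FPKM. No marker of these lists was listed at 0. The part of these cells and of cell division in the values of Rad18, Gtf2h1, Cul4b, Mgmt and Polb was not tested. Bmi1 itself, the gene behind the label, had 3.11 and 7.03 FPKM.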

How the data were processed

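RNA was sequenced from 4 samples, 2 per fraction. Per the submitters' processing notes, the tools were TopHat and Cuffdiff on build mm9; their versions, the strand setting and the gene models are not given here. The authors' deposited values, per the file headers, are 1 FPKM per gene and fraction, with a p-value and q-value for the difference. The lowest p-value there, 5e-05, gives q = 0.000405. FPKM depends on the other transcripts of a library: small RNA rows made up 39.1% (Tomato-negative) and 40.7% (Tomato-positive) of all FPKM.

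Log2 folds were computed from FPKM with no pseudocount, and calls are the authors' q below 0.05, adjusted over all tested genes. No test was computed here, since no values per sample were used. All 35 members are named, in full those called, and other pathway genes where called, with others where a result turns on them. The members and lists were chosen with earlier results of these data known. Lists were matched by symbol, and 3 older symbols by Ensembl ID. Coordinates are mm9 as deposited, where overlapping genes share 1 joined locus; strand, overlap and promoters come from GRCm38. The counting step was tested on simulated data with 200 planted genes. Alternatives are in the closing section. Python 3.11.15, pandas 2.3.3, NumPy 2.4.6 and matplotlib 3.10.9 were used.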

Additional observations from a re-analysis of the deposited data

How the results depend on the processing

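The counts of called repair genes, 3 higher and 2 lower, became 5 and 5 at an unadjusted p below 0.05 in the authors' deposited table. At that cut 3 of 18 nucleotide excision repair genes were higher and 1 lower. Of 10 base excision repair genes 1 was higher and 3 lower. Among all tested genes 17.8% were higher and 18.3% lower at that cut. For nucleotide excision repair the 2 higher genes became 1 (Gtf2h1) at q below 0.01, beside 9.17% of all tested genes. With a minimum of 1.5-fold they also became 1, beside 11.8% of all tested genes. A minimum of 1 FPKM in the mean of both fractions left every count as it was. Leaving out the 8 genes at a locus joined with another tested gene, an alternative chosen after seeing the data, left 2 higher, Rad18 and Cul4b, and 2 lower. With a pseudocount of 1 or 0.1, with centring on the median of all tested genes (a shift of -0.02 on the log2 scale) and with rescaling after leaving out small RNA rows (a shift of -0.03), all 35 log2 folds kept their sign. No paired analysis was possible because the deposited table used here holds 1 joined value per fraction, and leaving out each replicate was not run for the same reason. The depth per sample is unknown, so how small a difference could have been detected cannot be stated.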
